A study of Mus musculus with 18 samples.

Results

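The genes followed here encode the enzymes that bring pyruvate into the tricarboxylic acid (TCA) cycle, the kinases that restrain that step, and the enzymes of the cycle itself. They were chosen by name, from a list of 32 genes, and 28 of the 32 were measured among 15491 genes on the arrays. Mpc1, Mpc2, Pdhx and Idh2 were not analysed here. Of the 28 measured genes, 6 serve pyruvate entry or exchange with the pyruvate pool, 4 are pyruvate dehydrogenase kinases and 18 encode cycle enzymes or their relatives in the cytosol. Expression was measured in primary hepatocytes, the main cell type of the liver, isolated from wild-type (Wt in the labels) C57BL/6J mice. The cells carried an adenovirus for 48 h that expressed PGC-1a1, PGC-1a4 or neither (vector), and GFP was expressed by each of the 3 viruses. They then received TNFalpha at 2 ng/mL for 2 h, or PBS as vehicle. This gave 6 groups, vector, PGC-1a1 and PGC-1a4 under PBS and the same 3 under TNFalpha, with 3 arrays in each. Both proteins come from Ppargc1a, the gene of the coactivator PGC-1alpha: PGC-1a1 is its canonical long product, and PGC-1a4 a truncated one made by alternative splicing. Separate mice or cultures are not named in the labels for arrays of the same group, so every p-value reflects only how far these arrays spread, and that spread may be technical.

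Pyruvate reaches the cycle in the mitochondrial matrix either as acetyl-CoA, made by the pyruvate dehydrogenase complex, or as oxaloacetate, made by pyruvate carboxylase. Pyruvate dehydrogenase kinases phosphorylate the complex and switch it off, which in the fasted liver spares pyruvate for glucose synthesis. The cycle oxidises acetyl-CoA and hands electrons to the respiratory chain, and PGC-1alpha is known as a coactivator of mitochondrial genes through nuclear receptors such as the estrogen-related receptors (ERR) and through the nuclear respiratory factors NRF1 and GABP.

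Promoters of 4 members are shown because the members on which the results turn include Pdk4 and Cs, and because Sdhd and Sdha held the most matches to the motifs of those factors. The sequences are RefSeq promoters on build GRCm38.p6, each running from 250 bases before the annotated start to 50 bases after it, 5′ to 3′ on the strand of the gene. They lie at chr6:5496229-5496528 (minus strand) for Pdk4, chr10:128337477-128337776 (plus strand) for Cs, chr9:50603800-50604099 (minus strand) for Sdhd and chr13:74350191-74350490 (minus strand) for Sdha. Capitals mark matches, on either strand, to the ERR motif TNAAGGTCA, its shorter receptor site AAGGTCA, which lies inside it, the consensus of NRF1 and the GABP motif CCGGAAGT.
Pdk4: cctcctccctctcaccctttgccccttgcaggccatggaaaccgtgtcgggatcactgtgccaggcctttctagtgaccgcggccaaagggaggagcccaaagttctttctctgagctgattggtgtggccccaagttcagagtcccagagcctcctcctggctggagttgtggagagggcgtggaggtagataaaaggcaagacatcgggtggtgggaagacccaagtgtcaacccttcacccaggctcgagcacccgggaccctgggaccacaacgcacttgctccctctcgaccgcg
Cs: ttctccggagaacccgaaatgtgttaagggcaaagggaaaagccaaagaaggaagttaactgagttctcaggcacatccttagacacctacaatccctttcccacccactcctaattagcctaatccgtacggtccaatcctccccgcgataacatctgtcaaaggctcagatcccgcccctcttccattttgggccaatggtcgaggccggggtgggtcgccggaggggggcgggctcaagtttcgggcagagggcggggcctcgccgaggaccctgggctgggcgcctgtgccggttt
Sdhd: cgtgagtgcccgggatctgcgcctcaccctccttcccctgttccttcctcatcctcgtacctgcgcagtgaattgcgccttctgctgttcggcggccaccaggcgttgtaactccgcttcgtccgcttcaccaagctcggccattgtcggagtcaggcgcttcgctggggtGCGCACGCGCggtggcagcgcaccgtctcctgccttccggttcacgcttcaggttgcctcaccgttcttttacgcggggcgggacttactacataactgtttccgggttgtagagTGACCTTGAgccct
Sdha: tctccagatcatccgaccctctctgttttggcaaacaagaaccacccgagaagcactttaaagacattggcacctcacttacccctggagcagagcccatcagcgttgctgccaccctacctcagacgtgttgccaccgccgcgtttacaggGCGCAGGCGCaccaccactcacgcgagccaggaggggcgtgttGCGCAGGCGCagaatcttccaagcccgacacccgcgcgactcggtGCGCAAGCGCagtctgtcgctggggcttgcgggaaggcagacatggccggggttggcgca
In Sdhd the capitals are 1 match to NRF1 (GCGCACGCGC as printed) and 1 match to ERR (TGACCTTGA as printed), both of them matches on the opposite strand, and in Sdha they are 3 matches to NRF1. Promoter entries were found for 30 of the 32 listed genes, and Idh3a and Sdhc were not among them. Among those 30 genes the ERR motif was present in 1 (Sdhd), the shorter receptor site in 2 (Sdhd and Ogdh), the NRF1 motif in 4 (Dld, Sdha, Sdhd and Sucla2) and the GABP motif in 1 (Dlst). Counted in the same way, per gene with a match in any of its promoters of this length, the shares over all 27025 genes were 1.43%, 5.38%, 5.19% and 4.31% in the same order. Over single promoters, 32851 in all, they were 1.28%, 4.72%, 4.6% and 3.89%. Pdk4 and Cs held none of these letters in the window shown.

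The PBS and the TNFalpha arrays differed in their whole distribution. Array medians of all probe sets were 7.24 to 7.32 on the log2 scale under PBS and 7.04 to 7.1 under TNFalpha, and their SDs ran from 2.06 to 2.14 under PBS and from 2.24 to 2.32 under TNFalpha. The labels name no batch, and an array set here means only the PBS or the TNFalpha arrays. Whether the treatment or the handling of the arrays shifted the distributions was not tested. In a direct difference between TNFalpha and PBS these cannot be told apart. Comparisons of viruses within PBS or within TNFalpha do not cross the array sets. Below, the response to TNFalpha is the difference between TNFalpha and PBS arrays under 1 virus. Differences between viruses in this response cancel an equal shift of a whole set, but not the wider spread of the TNFalpha arrays. They also would not cancel a virus effect that differed between the sets for another reason than the treatment. Arrays of 1 group correlated at 0.991 to 0.996 over the probe sets that named 1 gene. The hepatocyte marker Alb, which encodes serum albumin, averaged 15.58 ± 0.01 (SD, n = 3) in vector under PBS, in a table whose highest value was 15.99. The hepatocyte marker Cyp2e1, a cytochrome P450 of ethanol and drug oxidation, averaged 8.87 ± 0.31, 9.09 ± 0.22 and 8.69 ± 0.25 (SD, n = 3) in vector, PGC-1a1 and PGC-1a4 under PBS. Under TNFalpha it averaged 13.22 ± 0.33, 13.27 ± 0.27 and 13.34 ± 0.08, so that it differed by over 4 log2 units between the array sets and did not pass between viruses. The summed signal of 4 measured hepatocyte markers, between 16.34 and 16.94 on the log2 scale, was carried by Alb and Serpina1c near the top of the table and does not show that difference. Ppargc1a did not pass the test in any comparison of viruses (PGC-1a1 against vector under PBS -0.28 ± 0.16, SE), and where its probes lie relative to the inserts of the viruses is not known here, so it does not check the labels.

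Under PBS, most genes of pyruvate oxidation and of the cycle were higher with PGC-1a1 than with vector, and none passed the test as lower. Of the 28 members 20 were higher than in vector and none was lower (limma, Benjamini-Hochberg adjusted p under 0.05 over 15491 genes), where 7.88% of all genes were higher and 4.11% lower. The median difference was 0.69 over the members and -0.01 over all genes, both on the log2 scale. The 20 genes comprised 4 of 6 entry genes, 2 of 4 kinases and 14 of 18 cycle genes. For each of these 20 the 3 PGC-1a1 arrays lay above the 3 vector arrays, as was the case for 13.7% of all genes. All 20 passed in each of 16 refits with another scaling, moderation, probe set rule or array left out. When a fold of at least 1.5 was also asked for, 16 passed, as did 556 of the 15491 genes.

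**Figure D1:**
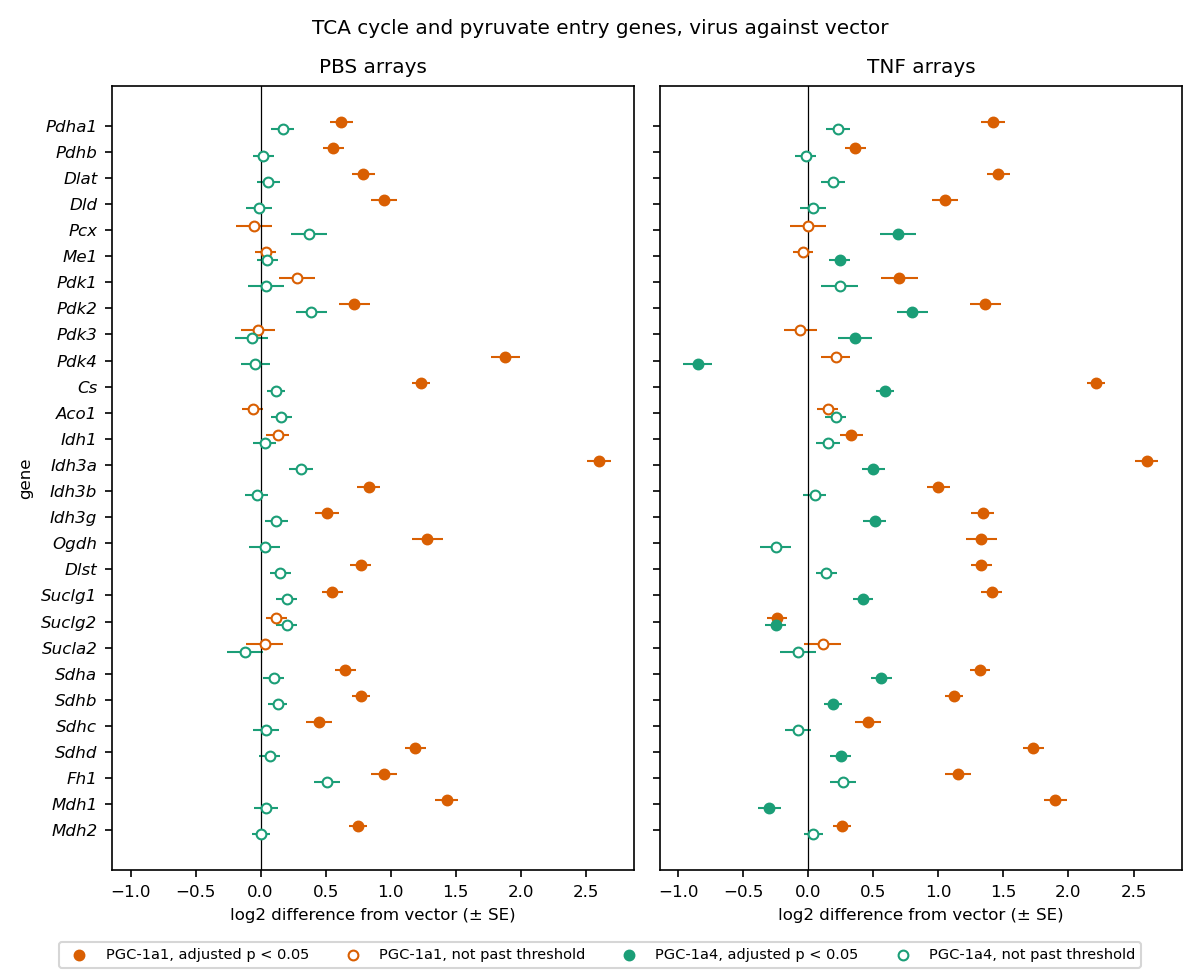
Log2 difference from vector (x axis, with its standard error) of the 28 measured genes (y axis), with PGC-1a1 in orange and PGC-1a4 in green, among PBS arrays on the left and TNFalpha arrays on the right; filled points passed the adjusted p of 0.05. PGC-1a1 reached 2.60 for Idh3a in both panels, while all PGC-1a4 points under PBS are open and lie between -0.12 and 0.51.

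Idh3a showed the largest difference of the 28 members, and encodes the catalytic alpha subunit of the NAD-dependent isocitrate dehydrogenase, a rate-controlling step. Its levels on the 3 vector PBS arrays were 10.32, 10.61 and 10.48, and those on the PGC-1a1 PBS arrays were 13.08, 12.98 and 13.16. The groups were far apart, with a difference of 2.60 ± 0.09 (SE; 6.07-fold; limma adjusted p = 2.65e-12). The other subunits of the same enzyme rose less, Idh3b by 0.83 ± 0.09 and Idh3g by 0.51 ± 0.09. Cs, citrate synthase, which joins acetyl-CoA to oxaloacetate, measured 11.49, 11.56 and 11.55 in vector and 12.79, 12.63 and 12.86 with PGC-1a1. All 3 PGC-1a1 values lay above the vector values, a difference of 1.23 ± 0.07 (SE; 2.34-fold; limma adjusted p = 3.62e-09). Mdh1, the cytosolic malate dehydrogenase of the malate-aspartate shuttle, went from 12.86, 13.08 and 12.94 to 14.33, 14.38 and 14.45, without overlap (1.43 ± 0.09, SE). Its mitochondrial counterpart Mdh2, which closes the cycle, rose by 0.75 ± 0.07. Ogdh, the first subunit of the oxoglutarate dehydrogenase complex, rose by 1.28 ± 0.12, and Dlst, the succinyl-transferring core of that complex, by 0.77 ± 0.08.

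All 4 subunits of succinate dehydrogenase, which is both a cycle enzyme and complex II of the respiratory chain, were higher with PGC-1a1. Sdhd, a membrane anchor, measured 12.42, 12.47 and 12.39 in vector and 13.61, 13.47 and 13.76 with PGC-1a1. These groups did not overlap and differed by 1.19 ± 0.08 (SE; 2.28-fold; limma adjusted p = 1.11e-08). The flavoprotein Sdha rose by 0.65 ± 0.08, the iron-sulfur subunit Sdhb by 0.77 ± 0.07 and the second anchor Sdhc by 0.45 ± 0.10. Fh1, fumarase, rose by 0.95 ± 0.10. Of the succinyl-CoA ligase genes only the shared alpha subunit Suclg1 passed (0.55 ± 0.08). The GDP-forming subunit Suclg2 (0.12 ± 0.08) and the ADP-forming subunit Sucla2 (0.03 ± 0.14) did not, and Sucla2 was dim, in the lowest quartile of all genes by mean level. The cytosolic relatives Aco1, an aconitase that doubles as an iron-sensing RNA-binding protein (-0.06 ± 0.08), and Idh1, the NADP-dependent isocitrate dehydrogenase (0.13 ± 0.09), did not pass either.

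At the point of entry, the 4 measured subunits of the pyruvate dehydrogenase complex rose together. Pdha1, the catalytic alpha subunit that the kinases phosphorylate, measured 11.69, 11.97 and 11.75 in vector and 12.37, 12.30 and 12.59 with PGC-1a1. The groups were separate, at 0.62 ± 0.09 (SE; limma adjusted p = 0.000119). Pdhb, its beta partner, rose by 0.56 ± 0.08, the acetyl-transferring core Dlat by 0.79 ± 0.09 and Dld, the dihydrolipoyl dehydrogenase shared with other oxoacid complexes, by 0.95 ± 0.10. Neither gene of the other routes passed. Pcx, pyruvate carboxylase, differed by -0.05 (95% interval -0.34 to 0.24) and Me1, the cytosolic malic enzyme that makes NADPH and pyruvate from malate, by 0.04 (-0.12 to 0.20).

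Of the 4 kinases, Pdk4 and Pdk2 passed. Pdk4, the isoform known for induction by fasting, measured 7.43, 7.56 and 7.30 in vector and 9.28, 9.22 and 9.42 with PGC-1a1 under PBS. The 3 PGC-1a1 arrays stood well above all vector arrays, by 1.88 ± 0.11 (SE; 3.68-fold; limma adjusted p = 3.36e-09). Pdk2, the widely expressed isoform of liver, rose by 0.72 ± 0.12. Pdk1 (0.28 ± 0.14) and Pdk3 (-0.02 ± 0.13) did not pass, and Pdk1 passed without the second PGC-1a1 PBS array (0.45, limma adjusted p = 0.0422).

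Under TNFalpha, most of these genes were again higher with PGC-1a1. Against vector under TNFalpha 21 members were higher and 1 was lower by limma, where 20.8% of all genes were higher and 20.5% lower, so that far more of the whole array differed here than under PBS. The median difference was 1.08 over the members and -0.03 over all genes. Of the 20 genes called under PBS 19 were called in the same direction here, which is 19 of the 22 called under TNFalpha. The share of all genes called in the same direction in both sets was not counted, so the 19 cannot be set against it. The group means being compared share no array. Both tests used a spread pooled over all groups, however, so they are not fully independent. Of those 19 genes 16 had the larger difference under TNFalpha. A total of 16 of 28 members differed at least 2-fold under TNFalpha, and 6 did so under PBS. The shares of all genes with a 2-fold difference, or with the larger difference under TNFalpha, were not counted. Larger differences were also more common over the whole array under TNFalpha. With a minimum fold of 1.5, 556 of all genes were called under PBS and 2798 under TNFalpha. Whether the rise in the members exceeded that of all genes was not tested.

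Idh3a kept its place at the top, with 11.21, 11.19 and 11.27 in vector and 13.83, 13.79 and 13.84 with PGC-1a1. The groups were again apart, by 2.60 ± 0.09 (SE; 6.06-fold; limma adjusted p = 3.81e-13). Cs measured 11.30, 11.17 and 11.24 in vector and 13.47, 13.42 and 13.44 with PGC-1a1, a difference of 2.21 ± 0.07 (SE; 4.61-fold; limma adjusted p = 3.24e-13). Mdh1 differed by 1.90 ± 0.09 and Sdhd by 1.73 ± 0.08. The remaining cycle genes that rose were Suclg1 (1.41), Idh3g (1.34), Ogdh (1.33), Dlst (1.33), Sdha (1.32), Fh1 (1.15), Sdhb (1.12), Idh3b (1.00), Sdhc (0.46), Idh1 (0.33) and Mdh2 (0.26). Mdh2 did not pass after quantile normalization over all arrays (0.14, limma adjusted p = 0.0785). Suclg2 was the 1 member that fell (-0.24 ± 0.08, SE; limma adjusted p = 0.023). Its call ended without the first or the third vector array or the first PGC-1a1 array (adjusted p 0.0622 to 0.0769).

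Among the entry genes under TNFalpha, Pdha1 measured 11.37, 11.39 and 11.27 in vector and 12.72, 12.77 and 12.81 with PGC-1a1, and the groups lay 1.42 ± 0.09 apart (SE; 2.68-fold; limma adjusted p = 7.03e-10). Dlat differed by 1.46 ± 0.09, Dld by 1.05 ± 0.10 and Pdhb by 0.36 ± 0.08. Pcx (0.00 ± 0.14) and Me1 (-0.04 ± 0.08) again did not pass. Of the kinases, Pdk2 rose by 1.36 ± 0.12 and Pdk1 by 0.70 ± 0.14, while Pdk3 did not pass (-0.06 ± 0.13). Pdk4 also did not pass here. Its 3 vector arrays, at 10.44, 10.32 and 10.10, overlapped the PGC-1a1 arrays, at 10.59, 10.51 and 10.40 (0.21 ± 0.11, SE; limma adjusted p = 0.132).

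**Figure D2:**
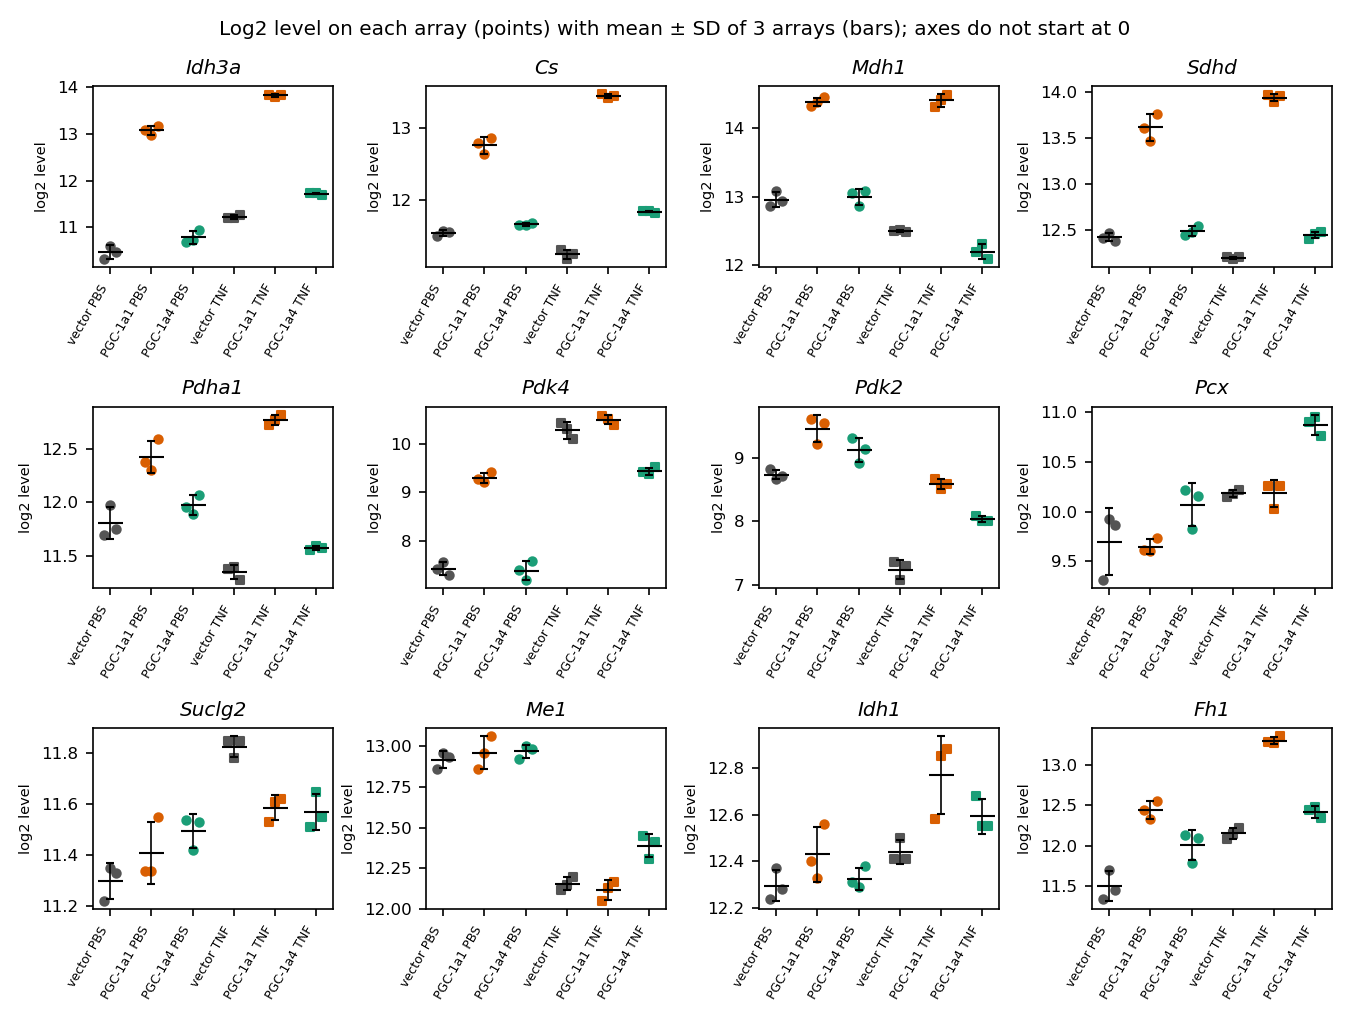
Log2 level on each array (points; circles PBS, squares TNFalpha) with the mean and SD of 3 arrays (bars) for 12 genes in the 6 groups; the y axes differ between panels and do not start at 0. Idh3a, Cs, Mdh1 and Sdhd stand apart with PGC-1a1 in both sets, and Pdk4 in vector runs from about 7.43 under PBS to 10.29 under TNFalpha.

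Under PBS no member passed the test with PGC-1a4. None of the 28 members passed against vector in either direction by limma, where 0.0775% of all genes were higher and 0.129% lower. An unadjusted limma p under 0.05 was found for 6 members, all of them higher. The share of all genes under that unadjusted threshold was not counted, so the 6 cannot be set against it. The median difference was 0.06 over the members and -0.02 over all genes. For 9 members the 3 PGC-1a4 arrays lay above the 3 vector arrays, as for 7.46% of all genes, and for none did they lie below, where 10.6% of all genes did. Fh1 came nearest to the threshold, with 11.34, 11.70 and 11.45 in vector and 12.13, 11.79 and 12.10 with PGC-1a4. Those groups did not overlap and differed by 0.51 ± 0.10 (SE; 1.42-fold; limma adjusted p = 0.0575). Fh1 passed without the second vector array (0.61, adjusted p = 0.0201) and without the second PGC-1a4 array (0.62, adjusted p = 0.0265). It also passed with trend and robust moderation (adjusted p = 0.00228), with array weights (0.00291), under each of 3 other scalings (0.0216 to 0.0294) and with the dimmest genes left out (0.0348). Next by adjusted p were Idh3a at 0.31 ± 0.09 (SE; adjusted p = 0.157) and Pdk2 at 0.39 ± 0.12 (adjusted p = 0.189). Idh3a passed with trend and robust moderation (adjusted p = 0.0314) and with array weights (0.0212), and Pdk2 with array weights (0.0242). More genes of the whole table passed there too, 157 with the former setting and 893 with the latter, against 32 in the full fit. A p that misses the threshold does not show equality, and the 95% intervals of the cycle enzymes Cs (-0.03 to 0.28) and Mdh1 (-0.14 to 0.22) give the range of differences these arrays allow.

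Under TNFalpha, PGC-1a4 differed from vector in 14 members. By limma 11 were higher and 3 lower, where 21.1% of all genes were higher and 12.3% lower. The median difference was 0.20 over the members and 0.01 over all genes, and none reached 2-fold. Without the third PGC-1a4 TNFalpha array 8 members passed (7 higher, 1 lower), and cyclic loess scaling gave 8 higher and 4 lower. In 8 members the call held in each of the 16 refits. PGC-1a1 and PGC-1a4 are both set against the same vector arrays, so their differences from vector are not independent.

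Pdk4 was the member with the largest decrease under PGC-1a4. Its levels were 10.44, 10.32 and 10.10 in vector under TNFalpha and 9.42, 9.38 and 9.52 with PGC-1a4. All PGC-1a4 arrays lay below all vector arrays, by -0.85 ± 0.11 (SE; 1.80-fold; limma adjusted p = 1.66e-05). Pdk2 went the other way, from 7.35, 7.07 and 7.29 to 8.09, 8.01 and 8.01 (0.80 ± 0.12, SE; limma adjusted p = 4.27e-05), with no overlap. Pdk3, an isoform of low abundance in liver, was called higher at 0.36 ± 0.13, but its arrays overlapped (7.71, 7.50 and 7.43 against 7.93, 7.68 and 8.09), and its call ended without any 1 of 4 arrays (adjusted p 0.0939 to 0.161).

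At entry, Pcx set PGC-1a4 apart. Its levels under TNFalpha were 10.15, 10.18 and 10.22 in vector, 10.26, 10.03 and 10.26 in PGC-1a1 cells and 10.90, 10.95 and 10.76 in PGC-1a4 cells. The PGC-1a4 arrays lay above all others, by 0.69 ± 0.14 against vector (SE; 1.61-fold; limma adjusted p = 0.000854). Me1 rose by 0.24 ± 0.08, a call lost without any 1 of 4 arrays (adjusted p 0.0536 to 0.0874). The 4 measured subunits of the pyruvate dehydrogenase complex did not pass, from -0.02 for Pdhb to 0.23 for Pdha1. Pdha1 (limma adjusted p = 0.0643) did pass with trend and robust moderation (0.0208). It also passed with only the TNFalpha arrays fitted (0.0318) and with the dimmest genes left out (0.0462).

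In the cycle, Cs rose with PGC-1a4 from 11.30, 11.17 and 11.24 to 11.84, 11.84 and 11.82, a difference of 0.59 ± 0.07 (SE; 1.51-fold; limma adjusted p = 8.73e-06) with no overlap. Sdha (0.56 ± 0.08), Idh3g (0.51 ± 0.09), Idh3a (0.50 ± 0.09) and Suclg1 (0.42 ± 0.08) rose too. Sdhd (0.25 ± 0.08) and Sdhb (0.19 ± 0.07) passed by less: Sdhd lost its call without the third PGC-1a4 array (adjusted p = 0.0557) and Sdhb without any 1 of 5 arrays (adjusted p 0.055 to 0.146). Suclg2 fell by 0.25 ± 0.08 on the log2 scale, a call lost without any 1 of 4 arrays (adjusted p 0.0523 to 0.0776). Mdh1 was lower on its brightest probe set (-0.30 ± 0.09), but not without the third PGC-1a4 array (-0.25, adjusted p = 0.0574) nor as the mean of its probe sets (-0.03). Fh1 did not pass in the full fit (0.27, limma adjusted p = 0.055) but did in several refits (0.0153 to 0.0496). Aco1 and Idh1 upward and Ogdh downward also passed only in some refits.

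Set directly against each other under PBS, PGC-1a1 exceeded PGC-1a4 in 19 members and was lower in 1, where 10.3% of all genes were higher and 7.08% lower by limma. The median was 0.50 over the members and 0.03 over all genes. Idh3a differed by 2.29 ± 0.09 (4.88-fold), Pdk4 by 1.92 ± 0.11, Mdh1 by 1.39 ± 0.09, Ogdh by 1.25 ± 0.12 and Cs by 1.11 ± 0.07. The lower gene was Pcx (-0.42 ± 0.14, SE; limma adjusted p = 0.0418). That call was lost in 5 of 6 fits without 1 array (adjusted p 0.0632 to 0.175), with differences of -0.46 to -0.34 that were close to that of the full fit.

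Under TNFalpha PGC-1a1 exceeded PGC-1a4 in 21 members and was lower in 3, where 15.2% of all genes were higher and 21.3% lower. The median was 0.86 over the members and -0.02 over all genes. Mdh1 led, with 14.31, 14.42 and 14.49 against 12.20, 12.31 and 12.09 (2.21 ± 0.09, SE; 4.61-fold; limma adjusted p = 4.39e-12). Idh3a followed at 2.10 ± 0.09, Cs at 1.61 ± 0.07, Ogdh at 1.58 ± 0.12 and Sdhd at 1.48 ± 0.08. Pdk4 was also higher, by 1.06 ± 0.11. The 3 genes that were lower with PGC-1a1 were Pcx (-0.69 ± 0.14), Pdk3 (-0.42 ± 0.13) and Me1 (-0.27 ± 0.08). Of the 24 calls, those of Mdh2, Pdk1 and Pdk3 ended when 1 array was left out (adjusted p up to 0.0837).

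The difference between TNFalpha and PBS arrays was not the same in PGC-1a1 and vector for 14 members. In 11 the TNFalpha-minus-PBS difference was higher with PGC-1a1 and in 3 it was lower, where limma called 13.4% of all genes higher and 12% lower. The median difference of responses was 0.20 over the members and -0.01 over all genes. Cs showed the largest upward difference of responses, -0.29 in vector and 0.68 with PGC-1a1 (0.98 ± 0.10, SE; limma adjusted p = 2.12e-06). Suclg1 followed at 0.86 ± 0.11, Idh3g at 0.83 ± 0.13, Pdha1 at 0.80 ± 0.13, Dlat at 0.67 ± 0.13, Sdha at 0.66 ± 0.11 and Pdk2 at 0.64 ± 0.16. Pdk2 did not pass after quantile normalization over all arrays (0.43, limma adjusted p = 0.0922). Dlst (0.56), Sdhd (0.54), Mdh1 (0.48) and Sdhb (0.35) completed the 11, and Sdhd did not pass as the mean of its probe sets (0.35, adjusted p = 0.146).

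**Figure D3:**
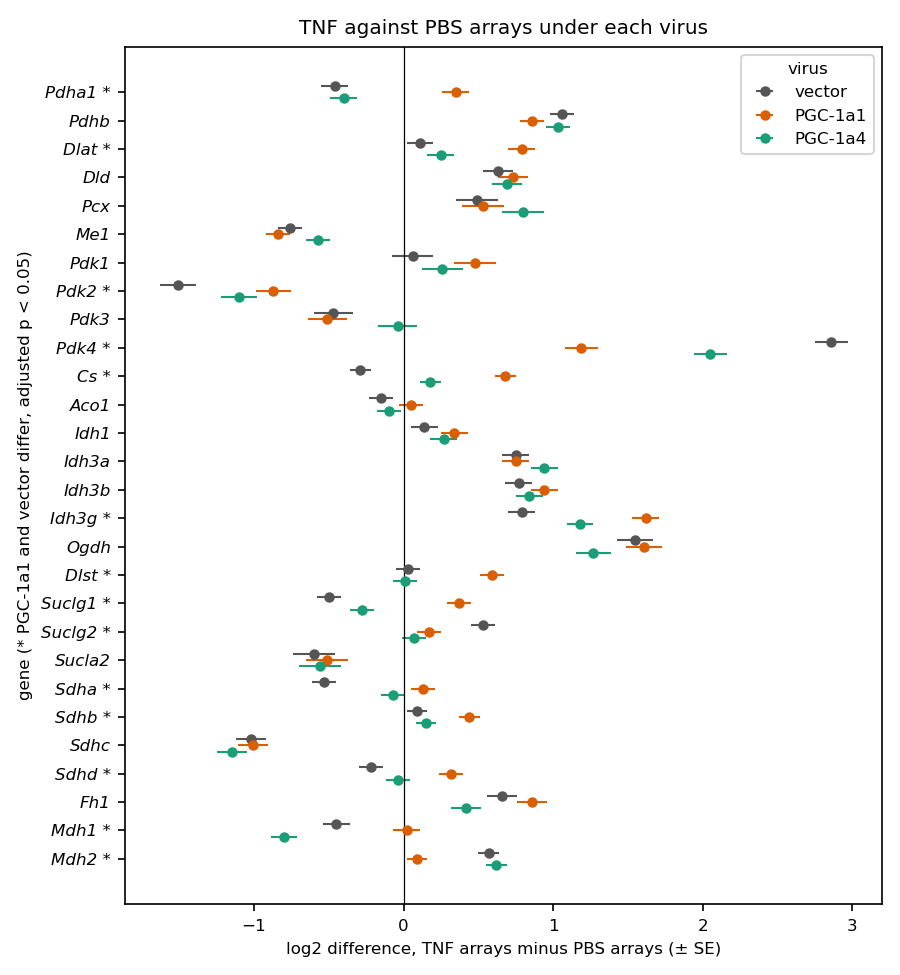
Log2 difference of TNFalpha arrays minus PBS arrays (x axis, with its standard error) for the 28 genes (y axis) under vector (grey), PGC-1a1 (in orange) and PGC-1a4 (in green); an asterisk marks the 14 genes whose difference was not the same in PGC-1a1 and vector by limma. Pdk4 spans 1.19 to 2.86, and Cs lies at -0.29 in vector, 0.18 with PGC-1a4 and 0.68 with PGC-1a1.

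Pdk4 showed the largest downward difference of responses. Vector cells went from 7.43, 7.56 and 7.30 under PBS to 10.44, 10.32 and 10.10 under TNFalpha, a difference of 2.86 ± 0.11 (SE; 7.25-fold). Cells with PGC-1a1, already high under PBS, differed by 1.19 ± 0.11, and cells with PGC-1a4 by 2.05 ± 0.11. The response was thus lower by -1.67 ± 0.16 with PGC-1a1 (SE; limma adjusted p = 6.21e-07) and by -0.80 ± 0.16 with PGC-1a4 (SE; limma adjusted p = 0.00191). Mdh2 (-0.49 ± 0.10) and Suclg2 (-0.35 ± 0.11) were the other members with a lower response in PGC-1a1 than in vector. The Suclg2 call ended without any 1 of 5 arrays (adjusted p 0.0541 to 0.0705).

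For PGC-1a4 against vector the response differed in 4 members, 2 up and 2 down, where 11.9% of all genes were higher and 4.12% lower. Besides Pdk4 these were Cs (0.47 ± 0.10), Sdha (0.46 ± 0.11) and Suclg2 (-0.46 ± 0.11). Sdha did not pass as the mean of its probe sets (0.26, adjusted p = 0.119). The responses of PGC-1a1 and PGC-1a4 differed in 12 members, 10 higher and 2 lower with PGC-1a1, where limma called 7.18% of all genes higher and 12.6% lower. Mdh1 (0.82 ± 0.12), Pdha1 (0.75 ± 0.13), Suclg1 (0.65 ± 0.11), Dlst (0.57 ± 0.11), Dlat (0.54 ± 0.13) and Cs (0.51 ± 0.10) were higher, and Pdk4 (-0.86 ± 0.16) and Mdh2 (-0.53 ± 0.10) lower. Fh1 (0.45), Idh3g (0.44), Sdhd (0.36) and Sdhb (0.29) passed in the full fit but not in 10, 7, 4 and 12 of the 12 fits without 1 array (adjusted p up to 0.112).

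Taken within a virus, TNFalpha and PBS arrays differed in most genes of the table, and the members were no exception. In vector 11 members were higher and 11 lower, where 34.7% of all genes were higher and 36.6% lower. With PGC-1a1 18 were higher and 5 lower (34.6% and 35% of all genes), and with PGC-1a4 13 and 7 (37.4% and 32.8%). These splits moved with the scaling: with all arrays quantile-normalized, 8 were higher and 16 lower in vector, 13 and 6 with PGC-1a1 and 7 and 13 with PGC-1a4, cyclic loess gave 9 and 15, 11 and 8, and 7 and 14, and centring of the arrays gave 15 and 9 in vector. Centring moved the median of all genes by 0.16 in vector and by 0.18 with PGC-1a1. Directions that kept their sign under each of these scalings in all 3 viruses included Pdk4, Ogdh, Idh3b and Idh3g upward and Pdk2, Sdhc and Me1 downward. Ogdh differed by 1.55 in vector, 1.61 in PGC-1a1 cells and 1.27 in PGC-1a4 cells. Pdk2 differed by -1.51, -0.87 and -1.10, Sdhc by -1.02, -1.01 and -1.15, and Me1 by -0.76, -0.84 and -0.57, in the same order.

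Several members were read by more than 1 probe set, and these did not always give the same size. The 28 genes had 58 probe sets, of which 36 were higher and none lower with PGC-1a1 under PBS, and 16 of the 30 that were not the brightest of their gene were among the 36. Under TNFalpha 42 were higher and 3 lower. The share called over all probe sets was not counted. Over genes it was 7.88% higher and 4.11% lower under PBS, and 20.8% and 20.5% under TNFalpha. Probe sets of 1 gene read the same samples and are not separate results. For Idh3a, 2 other probe sets gave 1.43 and 1.32 under PBS and 2.93 and 3.02 under TNFalpha, and the last gave 0.04 and 0.82, against 2.60 and 2.60 for the brightest. As the mean of its probe sets Idh3a therefore had a higher TNFalpha response with PGC-1a1 than with vector (1.00), which its brightest probe set did not show (0.00 ± 0.12). The other probe sets of Mdh1 gave 1.27, 0.72 and -0.15 under PBS and 1.26, 2.81 and -0.26 under TNFalpha. For Sdhc the second probe set gave 0.59 under PBS and 1.56 under TNFalpha, where the brightest gave 0.45 and 0.46. Both Suclg2 probe sets were lower under TNFalpha (-0.24 and -0.42).

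**Figure D4:**
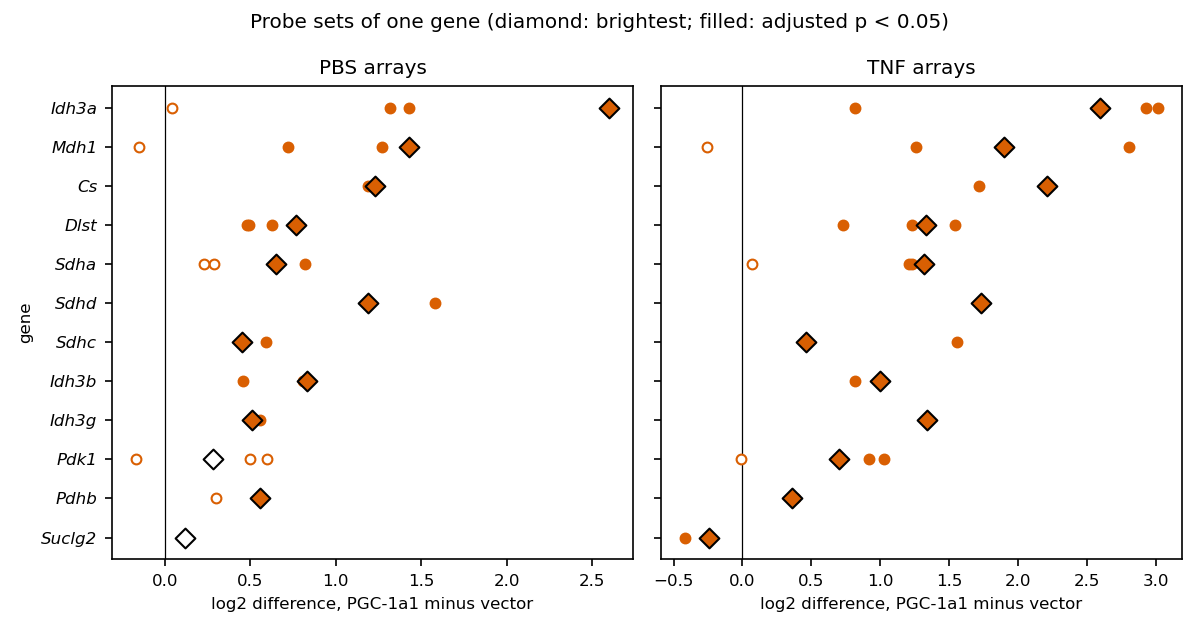
Log2 difference of PGC-1a1 minus vector (x axes) for each probe set of the genes shown (y axis), under PBS on the left and TNFalpha on the right; diamonds mark the brightest probe set, filled symbols an adjusted p under 0.05 in a fit over all probe sets. Probe sets of Idh3a spread from 0.04 to 2.60 under PBS, and 1 Mdh1 probe set lies below 0 in both panels.

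Some genes around the cycle rose with PGC-1a1 under PBS as well. Of 42 listed genes for supporting enzymes, cofactor supply, assembly, carriers and anaplerosis, 29 were measured, and with PGC-1a1 under PBS 9 were higher and 2 lower, where 7.88% of all genes were higher and 4.11% lower. The median was 0.18 over these 29 genes and -0.01 over all genes. The difference between these genes and the members was not tested. Slc25a12, a mitochondrial aspartate-glutamate carrier, rose by 1.17 ± 0.11, and Slc25a11, the oxoglutarate carrier of the malate-aspartate shuttle, by 0.51 ± 0.09. Slc25a13, also listed among the carriers, was not analysed here. Slc25a1, which exports citrate, fell (-0.36 ± 0.07). Of cofactor and activation genes Sirt3, a mitochondrial deacetylase, rose by 0.89 ± 0.10, the lipoate synthase Lias by 0.43 ± 0.07 and Pdpr, the regulatory subunit of pyruvate dehydrogenase phosphatase, by 0.42 ± 0.12. Bckdhb, a subunit of the branched-chain oxoacid dehydrogenase, rose by 0.61 ± 0.10, whereas its partner Bckdha (0.18 ± 0.10) and the transhydrogenase Nnt (-0.21 ± 0.10) did not pass. The succinate dehydrogenase assembly factor Sdhaf1 rose by 0.45 ± 0.12, and Sdhaf4 (0.22 ± 0.08) and Sdhaf2 (0.02 ± 0.07) did not pass. Among genes that feed or drain the cycle, Mcee, methylmalonyl-CoA epimerase, rose by 0.56 ± 0.08 and cytosolic Pck1, which turns oxaloacetate into phosphoenolpyruvate, by 0.55 ± 0.12, while mitochondrial Pck2 fell (-0.46 ± 0.14).

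Under TNFalpha 14 of these 29 genes were higher and 3 lower with PGC-1a1, where 20.8% of all genes were higher and 20.5% lower. With PGC-1a4 14 were higher and 2 lower (21.1% and 12.3% of all genes). All 3 measured assembly factors rose with both viruses: Sdhaf1 by 1.68 with PGC-1a1 and 0.86 with PGC-1a4, Sdhaf4 by 1.11 and 0.66, and Sdhaf2 by 0.67 and 0.37. The carriers Slc25a12 (2.57 and 0.63) and Slc25a11 (1.91 and 0.89), as well as Mcee (1.88 and 0.63) and Pdpr (1.46 and 0.41), also rose with both viruses, PGC-1a1 first. Bckdhb (1.31) and Lias (0.84) rose with PGC-1a1 and did not pass with PGC-1a4 (-0.12 and 0.07). Slc25a1, Pck2 and Nnt were higher with PGC-1a4 (0.47, 0.76 and 0.51) and did not pass with PGC-1a1 (0.00, -0.24 and 0.11), and Bckdha passed with neither (0.17 and -0.07). Pck1 measured 5.06 ± 0.17 in vector, 8.78 ± 0.12 in PGC-1a1 cells and 5.12 ± 0.11 in PGC-1a4 cells (SD, n = 3), and Sirt3 measured 7.38 ± 0.09, 10.22 ± 0.07 and 8.58 ± 0.17 in the same groups. The PGC-1alpha partner Esrra, an estrogen-related receptor, averaged 7.83 ± 0.18, 8.80 ± 0.06 and 7.98 ± 0.16 (SD, n = 3) in vector, PGC-1a1 and PGC-1a4 under PBS. Under TNFalpha it averaged 7.13 ± 0.08, 9.34 ± 0.15 and 7.77 ± 0.19. It was thus higher with PGC-1a1 in both sets (0.97 and 2.21) and with PGC-1a4 under TNFalpha (0.64; limma adjusted p = 0.000413). Ppara, the fatty acid receptor, differed by 0.58 and 1.87 with PGC-1a1, and by 0.04 and 1.04 with PGC-1a4, under PBS and TNFalpha, and passed in all of these but PGC-1a4 under PBS.

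Some markers of hepatocytes and of other liver cells also passed in these comparisons. Under PBS with PGC-1a1, 1 of 4 hepatocyte, 1 of 5 stellate cell and 1 of 4 endothelial markers passed, the first 2 lower and the last higher, and no marker of 2 Kupffer cell and 4 cholangiocyte genes did. Of all genes 7.88% were higher and 4.11% lower there. Under TNFalpha 1 hepatocyte marker was higher with PGC-1a1 (Serpina1c, 0.35) and 2 with PGC-1a4 (Serpina1c, 0.21, and Apoa1, 0.39). With PGC-1a1 under TNFalpha, both Kupffer cell markers, 2 stellate cell and 2 endothelial markers were lower, and the cholangiocyte markers went up in 1 and down in 2. With PGC-1a4 under TNFalpha 1 Kupffer cell, 3 stellate cell and 2 endothelial markers were lower. Of all genes under TNFalpha, 20.8% were higher and 20.5% lower with PGC-1a1, and 21.1% and 12.3% with PGC-1a4. Between TNFalpha and PBS arrays some markers differed by more than most members: in vector, the endothelial marker Lyve1 went from 7.12 ± 0.28 to 10.17 ± 0.11 and the cholangiocyte marker Epcam from 10.44 ± 0.11 to 7.83 ± 0.06 (SD, n = 3). The response to TNFalpha was lower with PGC-1a1 than with vector for 1 Kupffer cell marker (Csf1r, -0.78), 2 endothelial markers (Lyve1, -1.68, and Cdh5, -1.32) and 2 cholangiocyte markers (Sox9, -1.62, and Krt19, -0.91), and higher for 2 hepatocyte markers (Apoa1, 0.69, and Serpina1c, 0.46). With PGC-1a4 it was lower than with vector for 1 Kupffer cell, 2 stellate cell, 2 endothelial and 1 cholangiocyte marker. Between PGC-1a1 and PGC-1a4 it was lower with PGC-1a1 for 2 endothelial and 2 cholangiocyte markers and higher for 2 hepatocyte markers. The shares of all genes with a higher and a lower response were 13.4% and 12% for PGC-1a1 against vector. They were 11.9% and 4.12% for PGC-1a4 against vector, and 7.18% and 12.6% for PGC-1a1 against PGC-1a4. Summed log2 signals over all groups were 8.37 to 9.55 for Kupffer cell, 10.01 to 11.28 for stellate cell, 9.28 to 11.02 for endothelial and 9.24 to 11.12 for cholangiocyte markers. Their part in the results was not tested, and in whole cultures fewer cells of a type and less RNA per cell cannot be told apart.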

How the data were processed

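Total RNA of 18 samples was measured on Affymetrix mouse arrays. Values are log2 expression levels as deposited, summarized by RMA (affy), as named in the submitters' processing notes. Not given in the sources used here are tool versions and which arrays were normalized as 1 set. Large fold changes come out smaller after RMA. The table was held in part: 33245 complete probe sets, of which 25951 named 1 gene, 686 several and 6608 none. Of the first kind 25803 matched RefSeq (GRCm38.p6) by gene identifier. A gene is its brightest probe set by mean over all arrays. limma 3.58.1 (R 4.3.3) fitted 6 group means (12 residual and 5.08 prior degrees of freedom), with two-sided tests, Benjamini-Hochberg adjustment over 15491 genes per contrast and a threshold of 0.05. No signal over background was used, and 3 arrays a group limit the precision. Figures and summaries used Python 3.11.15, pandas 2.3.3 and matplotlib 3.10.9. All 28 measured members are named, and of the 29 measured neighbours the 3 of each group with the smallest p in PGC-1a1 against vector under PBS, with Esrra, Ppargc1a and Ppara. The same genes are named under TNFalpha. The members and lists were chosen with earlier results of these data known. Scripts were tested on simulated data. Alternatives covered moderation, arrays fitted, scaling, probe set rule, a dim gene filter, a minimum fold, the replicate block and leaving out each array.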

Additional observations from a re-analysis of the deposited data

Results flagged for a closer look

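The results below are those members for which the difference between TNFalpha and PBS arrays was not the same under every virus. The test was limma's test of the difference itself at an adjusted p of 0.05. Values are differences of log2 differences. Between PGC-1a1 and vector the response was higher with PGC-1a1 for Cs (0.98), Suclg1 (0.86), Idh3g (0.83), Pdha1 (0.80), Dlat (0.67), Sdha (0.66), Pdk2 (0.64), Dlst (0.56), Sdhd (0.54), Mdh1 (0.48) and Sdhb (0.35). It was lower with PGC-1a1 for Pdk4 (-1.67), Mdh2 (-0.49) and Suclg2 (-0.35). Between PGC-1a4 and vector it was higher with PGC-1a4 for Cs (0.47) and Sdha (0.46), and lower for Pdk4 (-0.80) and Suclg2 (-0.46). Between PGC-1a1 and PGC-1a4 it was higher with PGC-1a1 for Mdh1 (0.82), Pdha1 (0.75), Suclg1 (0.65), Dlst (0.57), Dlat (0.54), Cs (0.51), Fh1 (0.45), Idh3g (0.44), Sdhd (0.36) and Sdhb (0.29). It was lower with PGC-1a1 for Pdk4 (-0.86) and Mdh2 (-0.53). Of all genes, 13.4% were higher and 12% lower for PGC-1a1 against vector, and 11.9% and 4.12% for PGC-1a4 against vector. Between PGC-1a1 and PGC-1a4 the shares were 7.18% and 12.6%. In that last set the calls of Sdhb, Fh1, Idh3g and Sdhd were lost in 12, 10, 7 and 4 of 12 fits without 1 array. The Suclg2 call of PGC-1a1 against vector was lost in 5 of 12. The 3 sets of differences share arrays and are not independent of each other. No group has 4 or more arrays, so single arrays far from their group were not looked for.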

How the results depend on the processing

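The calls of PGC-1a1 against vector under PBS were kept in all refits but that with a minimum fold of 1.5, where 16 of 20 passed. For PGC-1a4 against vector under PBS the count of 0 became 2 with trend and robust moderation, 3 with array weights and 1 with quantile normalization, centred arrays, cyclic loess or the dimmest genes left out, and 0 to 1 without 1 array, and under TNFalpha 14 became 8 to 14. Without 1 array the other counts ran from 20 to 21 (PGC-1a1 against vector) and 19 to 20 (PGC-1a1 against PGC-1a4) under PBS, 21 to 22 and 22 to 23 under TNFalpha, 22 to 22, 22 to 24 and 17 to 19 for TNFalpha against PBS in vector, PGC-1a1 and PGC-1a4, and 13 to 14, 4 to 5 and 8 to 11 for the differences of responses. A minimum fold of 1.5 left 12 of the 20 members called between PGC-1a1 and PGC-1a4 under PBS and 4 of 14 for PGC-1a4 against vector under TNFalpha. For TNFalpha against PBS it left 12, 14 and 12 members in vector, PGC-1a1 and PGC-1a4, and for the differences of responses 8, 1 and 4. TNFalpha against PBS depended on the scaling. After quantile normalization the difference changed sign in vector for Dlat (-0.27), Idh1 (-0.24), Dlst (-0.43) and Sdhb (-0.24), with PGC-1a1 for Pdha1 (-0.03), Pdk1 (-0.01), Aco1 (-0.48), Idh1 (-0.02), Suclg1 (-0.05) and Suclg2 (-0.34) and with PGC-1a4 for Dlat (-0.28), Cs (-0.29), Idh1 (-0.09), Dlst (-0.47) and Suclg2 (-0.42). After cyclic loess it did so in vector for Dlat (-0.32), Idh1 (-0.24), Dlst (-0.39) and Sdhb (-0.26), with PGC-1a1 for Pdha1 (-0.06), Aco1 (-0.40), Idh1 (-0.03), Suclg1 (-0.06), Suclg2 (-0.26), Sdha (-0.24), Sdhd (-0.03) and Mdh1 (-0.29) and with PGC-1a4 for Dlat (-0.31), Cs (-0.29), Idh1 (-0.17), Dlst (-0.49), Suclg2 (-0.45), Sdhb (-0.23) and Fh1 (-0.03). As the mean of probe sets it did so in vector for Idh3a (-0.51) and Sdhd (0.31), with PGC-1a1 for Aco1 (-0.33) and with PGC-1a4 for Idh3a (-0.11), and for the Idh3a response of PGC-1a1 against vector (1.00) and against PGC-1a4 (0.60). The cause was not tested. With the replicate number as a block the counts were 20, 0 and 20 under PBS, 22, 13 and 24 under TNFalpha, 22, 23 and 20 for TNFalpha against PBS and 14, 5 and 10 for the responses. The block ended the calls of Pcx (PGC-1a1 against PGC-1a4, PBS), Sdhb (PGC-1a4 against vector, TNFalpha) and Fh1 and Sdhb (responses, PGC-1a1 against PGC-1a4). It added Pdk2 for PGC-1a1 against PGC-1a4 under PBS (0.33, limma adjusted p = 0.00959) and for the response of PGC-1a4 against vector (0.41, limma adjusted p = 0.0252). The labels state no pairing by number. Same-numbered arrays correlated at -0.14 to 0.23 in their deviations, and 9 of 18 were closest to their own number. These values do not settle whether arrays of 1 number belong together. Dim probes and 3 arrays a group limit what can be seen of small differences.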
